A study of Mus musculus with 6 samples.

Results

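The 32 genes described here encode the core machinery of macroautophagy and of LC3-associated phagocytosis. They were found as the rows of the deposited count table whose symbol is on a list of members given by step, and all 32 had exactly 1 row among the 21847 genes of the table. The 6 RNA-seq libraries came from mouse spleen cells, labelled as sorted splenic macrophages, depleted of T cells and kept for 3 days on a layer of human mesenchymal stromal cells (MSCs), which were derived from cord tissue. A quantum dot dye, Qtracker, had been loaded into the MSCs beforehand. Sorted cells that held the label, taken by the series as cells that engulfed MSCs, gave 3 Qtracker positive (Qpos) libraries, and sorted cells without the label gave 3 Qtracker negative (Qneg) libraries. Both groups came from culture with MSCs, and neither was kept without them, and the strain, sex and age of the mice are not given in the labels. The series calls the triplicates biological and paired, and libraries with the same number were treated as a pair. All sorted cells were CD11b positive, but one label adds Ly6G as the negative marker and another Ly6C, so the exact gate is uncertain.

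Macroautophagy wraps cytoplasm in a double membrane that then fuses with lysosomes. A kinase complex around ULK starts the process, a lipid kinase complex around Beclin marks the membrane with a phosphoinositide, and a ubiquitin-like conjugation system attaches proteins of the ATG8 family (the LC3 and GABARAP proteins) to it, where receptors that carry cargo bind them. Macrophages also attach LC3 to the single membrane of a phagosome, in LC3-associated phagocytosis, which uses the lipid kinase complex with UVRAG and Rubicon, the phagocyte NADPH oxidase and the conjugation system, but not the ULK complex. The process is best known in macrophages that take up dead cells and microbes, where it aids digestion of the cargo.

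Library totals were 42490705 to 55506993 estimated counts in Qpos libraries and 33943090 to 44061187 in Qneg libraries. Replicate 1 stood apart from replicates 2 and 3. Over the 32 genes, the median absolute log2 difference between replicate 1 and the mean of the others was 0.19 in Qpos and 0.54 in Qneg libraries, while between replicates 2 and 3 it was 0.06 in Qpos and 0.04 in Qneg libraries. Markers of macrophages, the labelled cell type, were present in every library, and their summed level (7 of 7 markers with a row, 6 called higher, 0 lower) was 7972 to 11203 CPM in Qpos libraries and 311 to 1618 CPM in Qneg libraries, with the lowest value in Qneg 1. CPM are counts scaled to a common library total with TMM factors. Markers of other cells moved with the groups too. B cell markers (6 of 6 called lower) summed to 178 to 241 CPM in Qpos and 1633 to 4840 CPM in Qneg libraries, with the highest in Qneg 1. Neutrophil markers (7 of 8 lower) summed to 1041 to 1123 CPM in Qpos libraries, and to 1274 CPM in Qneg 1 against 37980 and 37635 CPM in Qneg 2 and 3. Most of the Qpos sum was Mmp8 (694 to 1004 CPM in Qpos and 98.8 to 948 CPM in Qneg libraries, not called, and named after its values were seen). The other 7 neutrophil markers summed to 93.3, 347 and 339 CPM in Qpos libraries, against 1175, 37093 and 36687 CPM in Qneg libraries. The part of these markers in the results below was not tested, and in sorted bulk samples fewer cells of a type and less RNA per cell cannot be told apart. Summed dendritic cell markers (4 of 4 tested lower) were 14.7 to 18.4 CPM in Qpos and 130 to 414 CPM in Qneg libraries. Basophil and mast cell markers (4 of 4 lower) summed to 2.19 to 5.18 CPM in Qpos and 53.7 to 332 CPM in Qneg libraries, T cell markers (5 of 5 lower) to 1.49 to 5.66 CPM in Qpos and 8.67 to 59.0 CPM in Qneg libraries, and NK cell markers (3 of 4 tested lower) to 0.866 to 6.11 CPM in Qpos and 5.80 to 12.6 CPM in Qneg libraries. Eosinophil markers (3 of 4 higher, 1 lower) summed to 82.6 to 320.0 CPM in Qpos and 17.4 to 49.5 CPM in Qneg libraries. Mesenchymal stromal markers of the mouse (1 of 6 tested lower, 0 higher) summed to 9.01 to 10.4 CPM in Qpos and 8.28 to 36.9 CPM in Qneg libraries. In Qpos libraries the count was 0 in at least 1 library for Ly6g, Ncr1, Klrb1c, Prf1, Gzma, Ms4a2, Fcer1a and Sparc, and in Qneg libraries for Col3a1.

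The autophagy genes did not move as a block. Of the 32, 8 rose and 2 fell in Qpos cells and 22 did not pass the test (edgeR quasi-likelihood test with the pair as a block, Benjamini-Hochberg adjusted p under 0.05 over all 14605 tested genes). All 32 passed the filter on low counts. The called share was 31.2%, against 34.9% of all tested genes, with 25.0% higher against 18.5% and 6.25% lower against 16.3%. The median log2 fold change was 0.04 over the 32 genes and -0.01 over all tested genes. What stood out was a small set of genes with large changes: the cargo receptor Sqstm1 and the ATG8 gene Gabarapl1 were 4.46-fold and 5.06-fold higher in Qpos cells, and Gabarap was 2.30-fold, Atg10 2.35-fold and Atg5 2.27-fold higher. By DESeq2, 8 of the 32 were higher and 3 lower (DESeq2 called 48.5% of all tested genes, 23.4% higher and 25.1% lower). The Qpos libraries lay wholly above the Qneg libraries for 9 genes and wholly below for 3, where 30.0% and 29.4% of all tested genes did so.

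**Figure D1:**
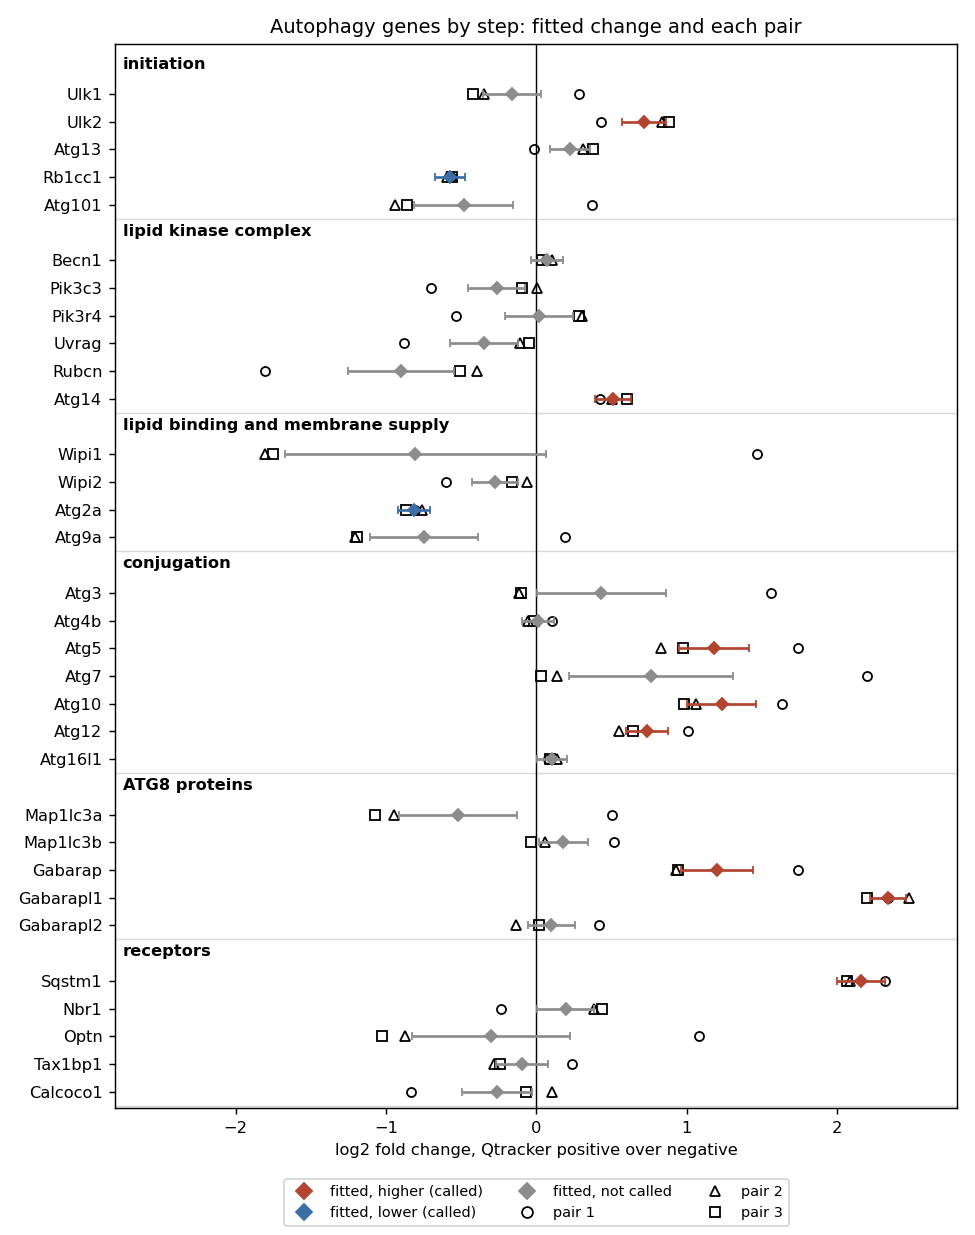
Log2 fold change (x axis, Qpos over Qneg) of the 32 genes by step (y axis), as the fitted value with its standard error (diamonds, coloured where called) and in each pair (open symbols). Sqstm1 and Gabarapl1 lie beyond 2 in all 3 pairs, while pair 1 lies far from pairs 2 and 3 for genes such as Wipi1, Atg7 and Optn.

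The 5 genes that rose by at least 2-fold, the largest changes among the 32, are shown with their promoters, the 250 bases before the RefSeq start (build GRCm38.p6). These genes were picked by their call and fold change in these data, and whether they share regulation was not tested. The promoters are on chr11:50210821-50211070 (minus strand) for Sqstm1, chr6:129532942-129533191 (plus strand) for Gabarapl1, chr11:69991120-69991369 (plus strand) for Gabarap, chr13:91223988-91224237 (minus strand) for Atg10 and chr10:44268089-44268338 (plus strand) for Atg5. Each is written 5′ to 3′ on the strand of its gene, and capitals mark a match to one of 3 motifs searched on both strands: CACGTG, the core of the element bound by the lysosomal regulators of the MiT/TFE family, TGACNNNGC, the core of the antioxidant response element, and TGANTCA, the AP-1 element. The last pair can overlap each other in sequence.
Sqstm1: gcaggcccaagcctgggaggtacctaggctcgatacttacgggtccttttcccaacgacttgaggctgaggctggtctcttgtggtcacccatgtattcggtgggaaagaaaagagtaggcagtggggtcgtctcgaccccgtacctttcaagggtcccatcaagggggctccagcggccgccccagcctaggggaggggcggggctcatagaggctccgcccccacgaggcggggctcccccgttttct
Gabarapl1: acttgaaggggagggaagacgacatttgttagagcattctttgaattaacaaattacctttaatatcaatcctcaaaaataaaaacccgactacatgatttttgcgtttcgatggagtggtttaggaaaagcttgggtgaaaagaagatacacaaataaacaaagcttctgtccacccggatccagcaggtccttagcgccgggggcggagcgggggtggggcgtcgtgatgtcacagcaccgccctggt
Gabarap: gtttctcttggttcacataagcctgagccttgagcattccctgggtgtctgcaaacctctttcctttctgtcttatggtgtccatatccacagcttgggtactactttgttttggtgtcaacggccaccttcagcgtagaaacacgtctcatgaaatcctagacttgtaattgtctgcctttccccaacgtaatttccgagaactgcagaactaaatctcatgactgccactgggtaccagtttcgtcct
Atg10: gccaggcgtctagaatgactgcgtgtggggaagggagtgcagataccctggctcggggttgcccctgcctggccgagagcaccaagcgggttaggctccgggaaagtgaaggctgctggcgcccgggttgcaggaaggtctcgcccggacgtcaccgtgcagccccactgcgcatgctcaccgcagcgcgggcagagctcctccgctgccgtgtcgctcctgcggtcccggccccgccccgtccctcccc
Atg5: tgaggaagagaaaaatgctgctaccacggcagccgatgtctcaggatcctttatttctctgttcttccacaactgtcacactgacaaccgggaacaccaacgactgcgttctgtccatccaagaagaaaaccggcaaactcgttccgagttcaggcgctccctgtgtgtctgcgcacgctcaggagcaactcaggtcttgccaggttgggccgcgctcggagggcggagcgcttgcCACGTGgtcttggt
Among these 5, Atg5 held a match, a CACGTG whose first base lies 14 bases before the start, and the other 4 windows held none of the 3 motifs. RefSeq and GENCODE starts differ, and the GENCODE gene Gabarap begins at 69991143, so most of its window lies inside that gene. The windows of Gabarapl1 and Sqstm1 reach into their GENCODE genes at the end near the start. RefSeq promoters were found for 26 of the 32 genes, in 29 windows. CACGTG was in a window of 4 of the 26, Rubcn, Atg3, Atg5 and Atg7, or 15.4%, against 6.02% of all 32851 windows. TGACNNNGC was in 3 of 26 (Ulk2, Atg13 and Tax1bp1), or 11.5%, against 10.2% of all windows, and TGANTCA in 0 of 26, against 6.75%. Shares of the 26 are per gene, counted if any window of the gene matched, while the shares of all windows are per window, so they are not in like units. Of the 4 genes with CACGTG, Atg5 rose and Rubcn, Atg3 and Atg7 did not pass the test. The windows of the 26 genes had a median GC content of 58.8%, against 52.4% for all windows.

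In the initiation complex, 1 of 5 genes rose, 1 fell and 3 did not pass (20.0% each way, against 18.5% higher and 16.3% lower of all tested genes). Ulk2 (chromosome 11 from 61775649 to 61855073, mm10), the sister kinase of ULK1, had 55.4, 78.9 and 81.0 CPM in Qpos libraries 1, 2 and 3, against 41.2, 44.2 and 44.0 CPM in Qneg libraries 1, 2 and 3. All 3 Qpos libraries lay above all Qneg libraries, with Qpos 1 the nearest, and the log2 fold change was 0.72 ± 0.14 (standard error, here and below), adjusted p = 0.0339. With library totals alone as scaling it was not called (0.37, adjusted p = 0.219). Rb1cc1 (chromosome 1 from 6206197 to 6276648), which encodes the scaffold FIP200, had 32.8, 49.3 and 51.3 CPM in Qpos libraries, against 48.7, 74.5 and 75.5 CPM in Qneg libraries. Both replicate 1 libraries were low, and the groups overlapped because Qneg 1 lay below Qpos 2 and 3. The pairs gave -0.57, -0.59 and -0.56, a fitted change of -0.57 ± 0.10 (adjusted p = 0.0259). That call was lost without the pair as a block (adjusted p = 0.118).

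The kinase Ulk1 and the ULK partner Atg101 changed direction between pairs. Ulk1 had 44.4, 56.0 and 52.8 CPM in Qpos libraries, against 36.4, 71.4 and 70.8 CPM in Qneg libraries, and its pair changes were 0.29, -0.35 and -0.42. Atg101 had 31.6, 26.3 and 26.7 CPM in Qpos libraries, against 24.4, 50.5 and 48.4 CPM in Qneg libraries, so Qneg 1 was the lowest library of all and Qneg 2 and 3 the highest. Their fitted changes were -0.16 ± 0.19 (adjusted p = 0.534) and -0.48 ± 0.33 (adjusted p = 0.309). The regulatory subunit Atg13 ranged over 49.2 to 63.5 CPM in Qpos and 48.8 to 51.3 CPM in Qneg libraries (0.22 ± 0.13, adjusted p = 0.249). Without replicate 1, all 5 genes of the complex were called, Ulk2 (0.87) and Atg13 (0.35) higher and Ulk1 (-0.37), Rb1cc1 (-0.56) and Atg101 (-0.89) lower, a setting that calls 72.9% of all tested genes.

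In the lipid kinase complex, 1 of 6 genes rose and 0 fell (16.7% and 0.0%, against 18.5% and 16.3% of all tested genes). The gene that rose was Atg14 (chromosome 14 from 47540893 to 47570649), the subunit that directs the kinase to autophagosome formation. It had 15.3, 18.3 and 19.5 CPM in Qpos libraries, against 11.4, 12.9 and 12.8 CPM in Qneg libraries. The groups did not overlap, and the change was 0.51 ± 0.12, close to the threshold (adjusted p = 0.0468). It missed the threshold under median-of-ratios scaling (0.0540), with library totals alone (0.478), without a filter (0.0581), with the stricter filter (0.0540) and in the authors' normalized values (0.0660).

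Rubcn, which encodes Rubicon, a brake on autophagosome maturation that LC3-associated phagocytosis needs, was lower in all 3 pairs but did not pass. It had 70.4, 79.9 and 75.3 CPM in Qpos libraries, against 246, 105 and 107 CPM in Qneg libraries. The groups did not overlap, and Qneg 1 stood far above the rest. The fitted change was -0.90 ± 0.35 (adjusted p = 0.122), and the pairs gave -1.81, -0.40 and -0.51. Without replicate 1 it was called at -0.44 (adjusted p = 0.000517), and DESeq2 called it with all libraries (adjusted p = 0.0390). B cell markers were also highest in Qneg 1 (4840 CPM, against 1633 and 1720 CPM in Qneg 2 and 3), and their part in the Rubcn difference was not tested.

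The core of the kinase complex showed small differences. Becn1, the Beclin scaffold, had 126, 138 and 134 CPM in Qpos libraries, against 120.1, 128 and 131 CPM in Qneg libraries, with pair changes of 0.037 to 0.11. Its fitted change of 0.069 ± 0.11 (adjusted p = 0.637) was among the smallest of the 32. Pik3c3, the catalytic subunit, was at 28.6, 37.7 and 37.7 CPM in Qpos and 46.5, 37.6 and 40.3 CPM in Qneg libraries (-0.26 ± 0.19, adjusted p = 0.332). Its partner Pik3r4 was at 26.5, 34.1 and 35.0 CPM in Qpos and 38.4, 27.6 and 28.8 CPM in Qneg libraries, with opposite signs in pair 1 and in pairs 2 and 3 (0.019 ± 0.23, adjusted p = 0.952). Uvrag, which takes the place of ATG14 in the endosomal form of the complex, was at 11.4 to 19.2 CPM in Qpos and 16.1 to 20.98 CPM in Qneg libraries (-0.35 ± 0.23, adjusted p = 0.290). For these 4 genes the groups overlapped, and Pik3r4 was called (higher) without replicate 1 (0.30, adjusted p = 0.00674).

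Genes that bind the lipid product or supply membrane were the step with the lowest median fitted log2 fold change, -0.77 over 4 genes. By pair, the median of this step was -0.20, -0.98 and -1.03 in pairs 1, 2 and 3. In pair 1 the lipid kinase complex had a lower median (-0.62). Atg2a (chromosome 19 from 6241668 to 6262335), a lipid transfer protein, was the gene of this step that fell (25.0%, against 16.3% of all tested genes). It had 58.3, 69.0 and 62.9 CPM in Qpos libraries, against 102, 117 and 115 CPM in Qneg libraries. The groups were well apart and replicate 1 did not stand out, with pair changes of -0.81, -0.76 and -0.87 and a fitted change of -0.81 ± 0.10 (adjusted p = 0.0161).

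The lipid scramblase gene Atg9a and the lipid binding gene Wipi1 had other directions in pair 1 than in pairs 2 and 3. Atg9a had 31.6, 32.2 and 34.9 CPM in Qpos libraries, against 27.7, 74.2 and 79.8 CPM in Qneg libraries, and did not pass (-0.75 ± 0.36, adjusted p = 0.177). Wipi1 had 18.1, 15.2 and 15.02 CPM in Qpos libraries, against 6.51, 53.2 and 50.7 CPM in Qneg libraries. Qneg 1 was the lowest library and Qneg 2 and 3 the highest for both genes, and the pair changes of Wipi1 were 1.47, -1.80 and -1.75 (fitted -0.80 ± 0.87, adjusted p = 0.501). Without replicate 1 Atg9a was called at -1.19 and Wipi1 at -1.77. Summed neutrophil markers were also far lower in Qneg 1 than in Qneg 2 and 3, 1274 CPM in Qneg 1 against 37980 and 37635 CPM in Qneg 2 and 3, and their part was not tested. Wipi2 was at 63.5, 65.5 and 61.7 CPM in Qpos and 96.1, 68.4 and 69.2 CPM in Qneg libraries, without overlap, and did not pass (-0.27 ± 0.16, adjusted p = 0.235).

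In the conjugation system 3 of 7 genes rose and 0 fell (42.9% and 0.0%, against 18.5% and 16.3% of all tested genes). Higher in all 3 pairs were 5 of 7, where 36.7% of all tested genes were. The 3 that rose belong to one reaction, in which ATG10 joins ATG12 to ATG5, and the product then directs lipidation of the ATG8 proteins. Atg5 (chromosome 10 from 44268358 to 44364291) had 65.2, 69.2 and 76.8 CPM in Qpos libraries, against 19.5, 38.9 and 39.0 CPM in Qneg libraries. The change was 1.18 ± 0.23 (adjusted p = 0.0320), and it was larger in pair 1 (1.74) than in pairs 2 and 3 (0.83 and 0.98), since Qneg 1 was low. Atg10 (chromosome 13 from 90935356 to 91223968), the conjugating enzyme, had 8.12, 8.49 and 8.41 CPM in Qpos libraries, against 2.59, 4.05 and 4.23 CPM in Qneg libraries (1.23 ± 0.23, adjusted p = 0.0294). Atg12 (chromosome 18 from 46730144 to 46741580), the ubiquitin-like protein itself, had 58.8, 60.4 and 63.7 CPM in Qpos libraries, against 29.2, 41.2 and 40.8 CPM in Qneg libraries (0.74 ± 0.14, adjusted p = 0.0315). For all 3 genes the Qpos libraries were close to each other and above every Qneg library, and all 3 were called without replicate 1 at 0.92, 1.04 and 0.61. Atg12 missed the threshold with library totals alone (adjusted p = 0.0731).

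The other 4 conjugation genes did not pass. Atg7, the activating enzyme of both conjugation reactions, had 114, 108 and 103 CPM in Qpos libraries, against 24.8, 97.8 and 101 CPM in Qneg libraries. The groups did not overlap, yet pairs 2 and 3 differed by 0.14 and 0.033 and pair 1 by 2.20 (fitted 0.76 ± 0.54, adjusted p = 0.327). Atg3, the conjugating enzyme for ATG8 proteins, had 122, 83.2 and 85.4 CPM in Qpos libraries, against 41.2, 90.3 and 91.6 CPM in Qneg libraries, and pair 1 gave 1.56 where pairs 2 and 3 gave -0.12 and -0.10 (0.43 ± 0.43, adjusted p = 0.464). Both genes were low in Qneg 1 alone. Macrophage markers had their lowest sum there as well (311 CPM, against 1618 and 1570 CPM in Qneg 2 and 3). Their sum was 11202.5 and 11060.5 CPM in Qpos 2 and 3. Neutrophil markers were also far lower in Qneg 1 than in Qneg 2 and 3 (1274 CPM, against 37980 and 37635 CPM). B cell markers were higher in Qneg 1 (4840 CPM, against 1633 and 1720 CPM). The part of these markers was not tested. Atg16l1, which joins the ATG5 conjugate and gives it its membrane site, was at 42.3, 41.6 and 39.7 CPM in Qpos and 40.0, 37.9 and 37.3 CPM in Qneg libraries (0.10 ± 0.10, adjusted p = 0.463). The protease gene Atg4b, whose product trims ATG8 proteins before conjugation, was at 26.0 to 27.8 CPM in Qpos and 24.1 to 28.9 CPM in Qneg libraries (0.011 ± 0.11, adjusted p = 0.944).

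Among the ATG8 genes, 2 of 5 rose (40.0%, against 18.5% of all tested genes), both of the GABARAP branch. No gene of the LC3 branch was called. Gabarapl1 (chromosome 6 from 129533160 to 129542346) had the largest fold change of the 32 genes. It had 60.8, 81.4 and 79.8 CPM in Qpos libraries, against 12.0, 14.6 and 17.3 CPM in Qneg libraries. Every Qpos library was above every Qneg library by a wide margin, the pairs gave 2.34, 2.48 and 2.20, and the fitted change was 2.34 ± 0.12 (adjusted p = 0.00630). Gabarap (chromosome 11 from 69991143 to 69994951) had 674, 624 and 645 CPM in Qpos libraries, against 202, 328 and 336 CPM in Qneg libraries (1.20 ± 0.24, adjusted p = 0.0336). Its change was 1.74 in pair 1 and 0.93 and 0.94 in pairs 2 and 3, where Qneg 1 was again the lowest library.

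The other 3 ATG8 genes overlapped between groups. Gabarapl2 was at 39.5, 41.3 and 44.5 CPM in Qpos and 29.6, 45.3 and 43.9 CPM in Qneg libraries (0.10 ± 0.15, adjusted p = 0.635). Map1lc3b, the LC3 gene most used as a marker of autophagosomes, was at 135, 152 and 152 CPM in Qpos and 94.4, 146 and 156 CPM in Qneg libraries (0.18 ± 0.16, adjusted p = 0.433). Map1lc3a was at 13.2, 15.8 and 14.6 CPM in Qpos and 9.31, 30.4 and 30.8 CPM in Qneg libraries, with pair changes of 0.50, -0.94 and -1.07 (-0.52 ± 0.39, adjusted p = 0.349). Without replicate 1, Map1lc3a was called at -0.9987 (adjusted p = 0.000109), and Map1lc3b (0.022, adjusted p = 0.663) and Gabarapl2 (-0.045, adjusted p = 0.552) were not.

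Levels of the ATG8 genes were compared per kilobase of the annotated principal transcript. On that scale Gabarap stood at 479.5 ± 18.5 CPM per kilobase in Qpos and 214 ± 55.8 in Qneg libraries (SD, n = 3 each), the highest of the 5 in every library. Gabarapl1 stood at 40.7 ± 6.29 CPM per kilobase in Qpos and 8.05 ± 1.46 in Qneg libraries, and Map1lc3b at 57.8 ± 3.88 in Qpos and 52.2 ± 13.0 in Qneg libraries. As a share of the summed ATG8 level per kilobase, Gabarapl1 made up 5.38% to 7.38% in Qpos and 2.21% to 3.01% in Qneg libraries, and Map1lc3b 8.59% to 9.90% in Qpos and 15.9% to 17.0% in Qneg libraries. Map1lc3a made up 1.91% to 2.34% in Qpos and 3.82% to 7.53% in Qneg libraries. Gabarap made up 76.3% to 80.3% in Qpos and 66.6% to 68.1% in Qneg libraries, and Gabarapl2 3.79% to 4.28% in Qpos and 7.01% to 8.06% in Qneg libraries. A share also moves with the levels of the other 4 genes, and the shares do not show that Map1lc3b or Gabarapl2 itself changed. With merged exons as the length, the shares of Map1lc3b were 4.07% to 4.69% in Qpos and 7.78% to 8.45% in Qneg libraries, so the order of Gabarapl1 and Map1lc3b in Qpos libraries depends on the length used.

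**Figure D2:**
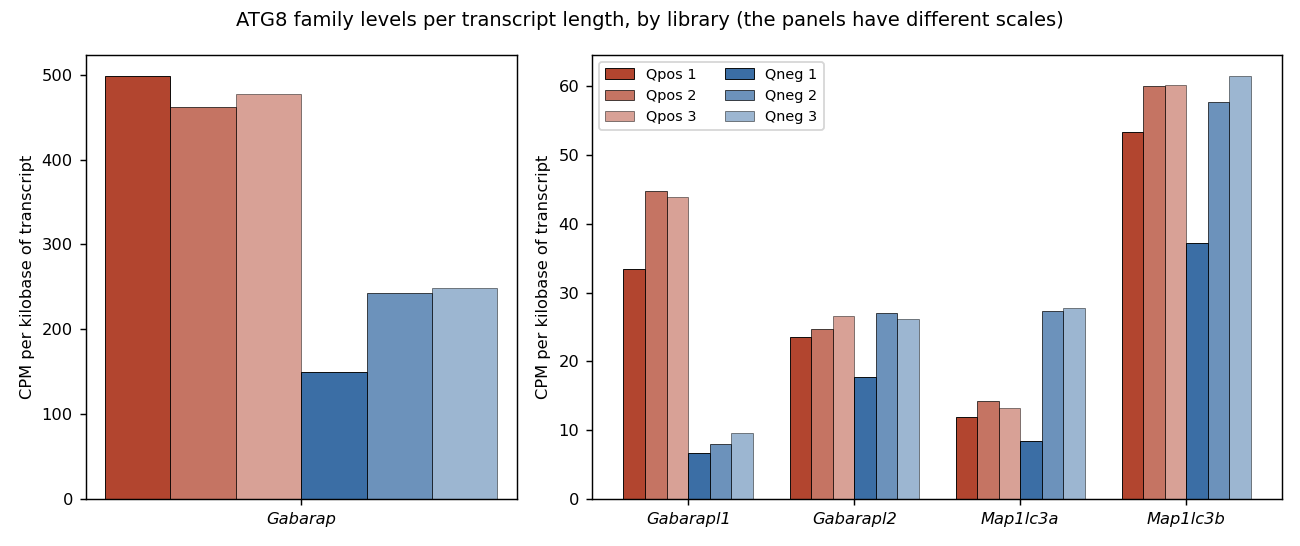
Level of the 5 ATG8 genes in CPM per kilobase of principal transcript (y axis, separate scales) in each library (red Qpos, blue Qneg, 1 bar per library). Gabarapl1 and Gabarap are higher in all 3 Qpos libraries, and Map1lc3b and Gabarapl2 overlap between groups.

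Of the 5 receptor genes, 1 rose and 0 fell (20.0% and 0.0%, against 18.5% and 16.3% of all tested genes). Sqstm1 (chromosome 11 from 50199366 to 50210827), which encodes a receptor that links ubiquitin-tagged cargo to ATG8 proteins, had 1139, 828 and 819 CPM in Qpos libraries, against 228, 195 and 196 CPM in Qneg libraries. All 3 Qpos libraries were far above all Qneg libraries and replicates 1, 2 and 3 gave like changes of 2.32, 2.09 and 2.06. The fitted change was 2.16 ± 0.16 (adjusted p = 0.00842). Per kilobase of principal transcript, Sqstm1 stood at 456 ± 89.5 CPM in Qpos and 101 ± 9.28 CPM in Qneg libraries (SD, n = 3 each), close to the level of Gabarap in Qpos libraries. That closeness depends on the length used. With merged exons, Sqstm1 stood at 339, 247 and 244 CPM per kilobase in Qpos libraries, against 366, 339 and 350 for Gabarap.

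The other 4 receptor genes were not called. Nbr1, which has a like domain structure, had 96.3, 134 and 137 CPM in Qpos libraries, against 114, 103 and 101 CPM in Qneg libraries (0.20 ± 0.19, adjusted p = 0.457). Optn, the receptor optineurin, had 26.8, 22.5 and 21.3 CPM in Qpos libraries, against 12.7, 41.4 and 43.3 CPM in Qneg libraries, with pair changes of 1.08, -0.88 and -1.03 (-0.30 ± 0.52, adjusted p = 0.674). Tax1bp1 was at 248, 223 and 241 CPM in Qpos and 209.6, 272 and 285 CPM in Qneg libraries (-0.10 ± 0.17, adjusted p = 0.683), and Calcoco1, a receptor for endoplasmic reticulum and Golgi membranes, at 37.4 to 41.0 CPM in Qpos and 38.1 to 66.6 CPM in Qneg libraries (-0.26 ± 0.23, adjusted p = 0.420). Groups overlapped for all 4. Without replicate 1, Nbr1 was called higher (0.42) and Optn (-0.94) and Tax1bp1 (-0.25) lower.

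**Figure D3:**
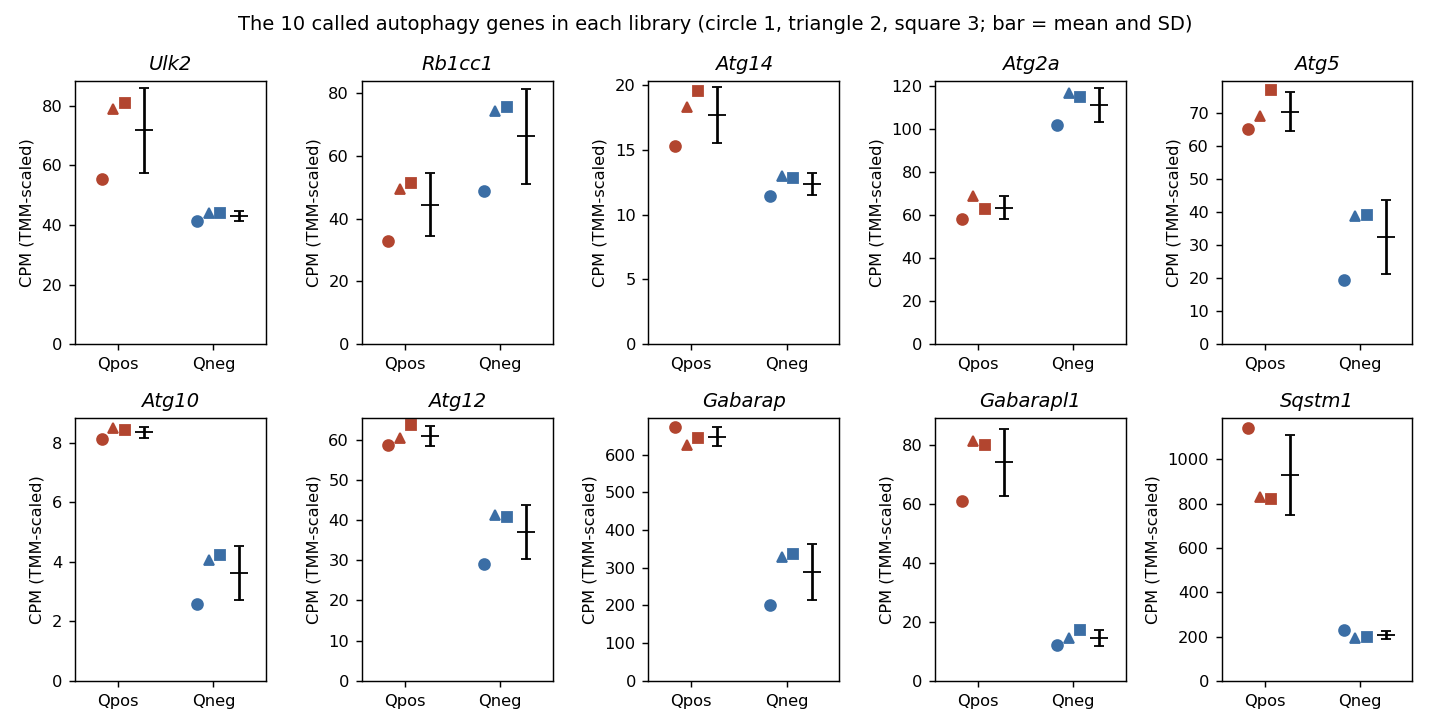
CPM (y axis, from 0) of the 10 called autophagy genes in each Qpos (red) and Qneg (blue) library, with the mean and SD of each group (n = 3). Groups are apart for all but Rb1cc1, whose replicate 1 libraries are both low.

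Many of these genes went one way in pair 1 and the other way in pairs 2 and 3. Over the 3 pairs, 11 of the 32 were higher in all and 5 lower in all, where 36.7% and 36.0% of all tested genes were. The direction over the 3 pairs was mixed for 16 of the 32 genes, while it was mixed for 27.3% of all tested genes. Pair 1 was opposite to both other pairs for 12 of them (37.5%, against 18.1% of all tested genes): Ulk1, Atg13, Atg101, Pik3r4, Wipi1, Atg9a, Atg3, Atg4b, Map1lc3a, Nbr1, Optn and Tax1bp1. The 8 genes farthest apart between Qneg 1 and the mean of Qneg 2 and 3 were Wipi1 (-2.99 on the log2 scale), Atg7 (-1.997), Optn (-1.74), Map1lc3a (-1.71), Atg9a (-1.47), Rubcn (1.21), Atg3 (-1.14) and Atg101 (-1.02). Of these, Rubcn was the one higher in Qneg 1.

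**Figure D4:**
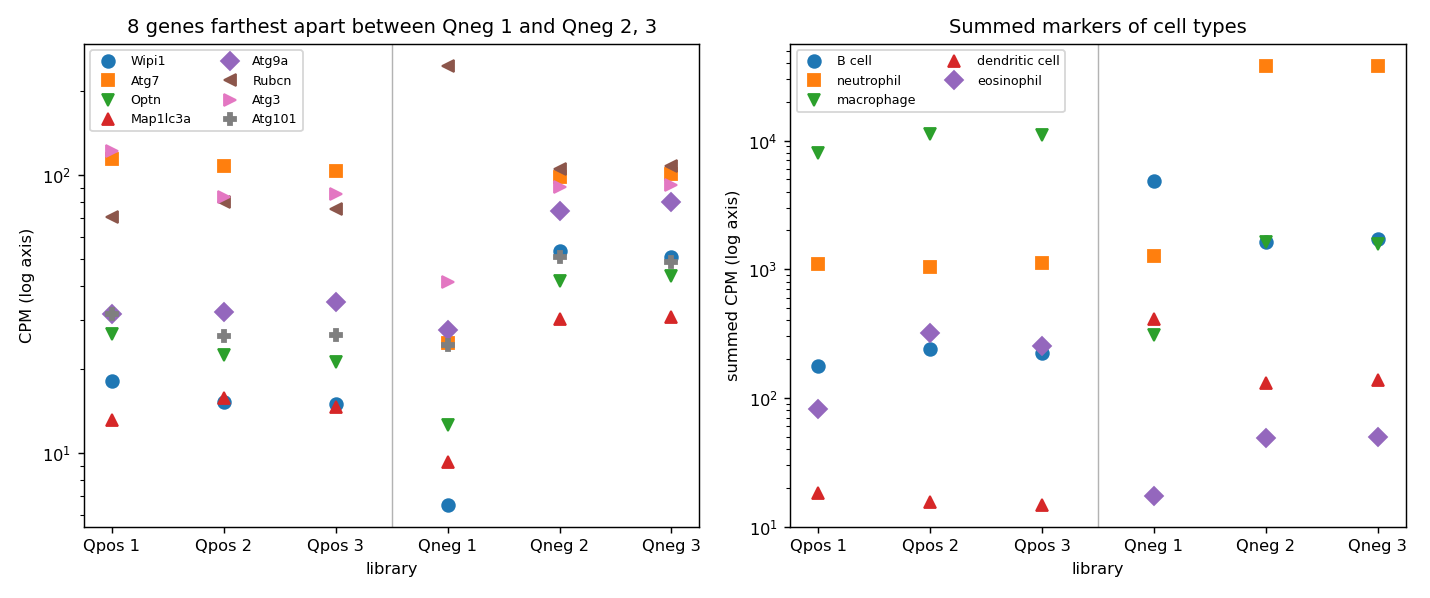
Left, CPM (log axis) of the 8 autophagy genes whose level in Qneg 1 lies farthest from that in Qneg 2 and 3; right, summed CPM (log axis) of the markers of 5 cell types, in each library. Qneg 1 has the highest Rubcn and B cell levels, while its Wipi1 and macrophage levels are the lowest of the 6 libraries.

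The count of calls depended on which libraries were used, and most on replicates 2 and 3. Without replicate 1, 11 of the 32 genes were higher and 10 lower, where 37.1% and 35.8% of all tested genes were, and the 10 genes called with all libraries were among them. Without replicate 2, edgeR called 0 of the 32 (7 at an unadjusted p under 0.05), and without replicate 3 also 0 (6 at an unadjusted p under 0.05). Few genes of the whole table were called in these fits: 136 higher and 175 lower of 14831 without replicate 2, and 0 of 14803 without replicate 3. Without replicate 3, DESeq2 called 4 of the 32 (Atg5, Gabarap, Gabarapl1 and Sqstm1) and limma-voom called Gabarapl1 and Sqstm1. Of all 14803 genes tested there, DESeq2 called 1467 higher and 1741 lower, and limma-voom 548 higher and 619 lower. With replicates 2 and 3 of each group summed to 1 library, edgeR called 0 of the 32 (7 at an unadjusted p under 0.05) and 0 of all 15570 tested genes. Over all alternatives, adjusted p ran up to 0.0583 for Gabarapl1 and 0.0804 for Sqstm1.

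**Figure D5:**
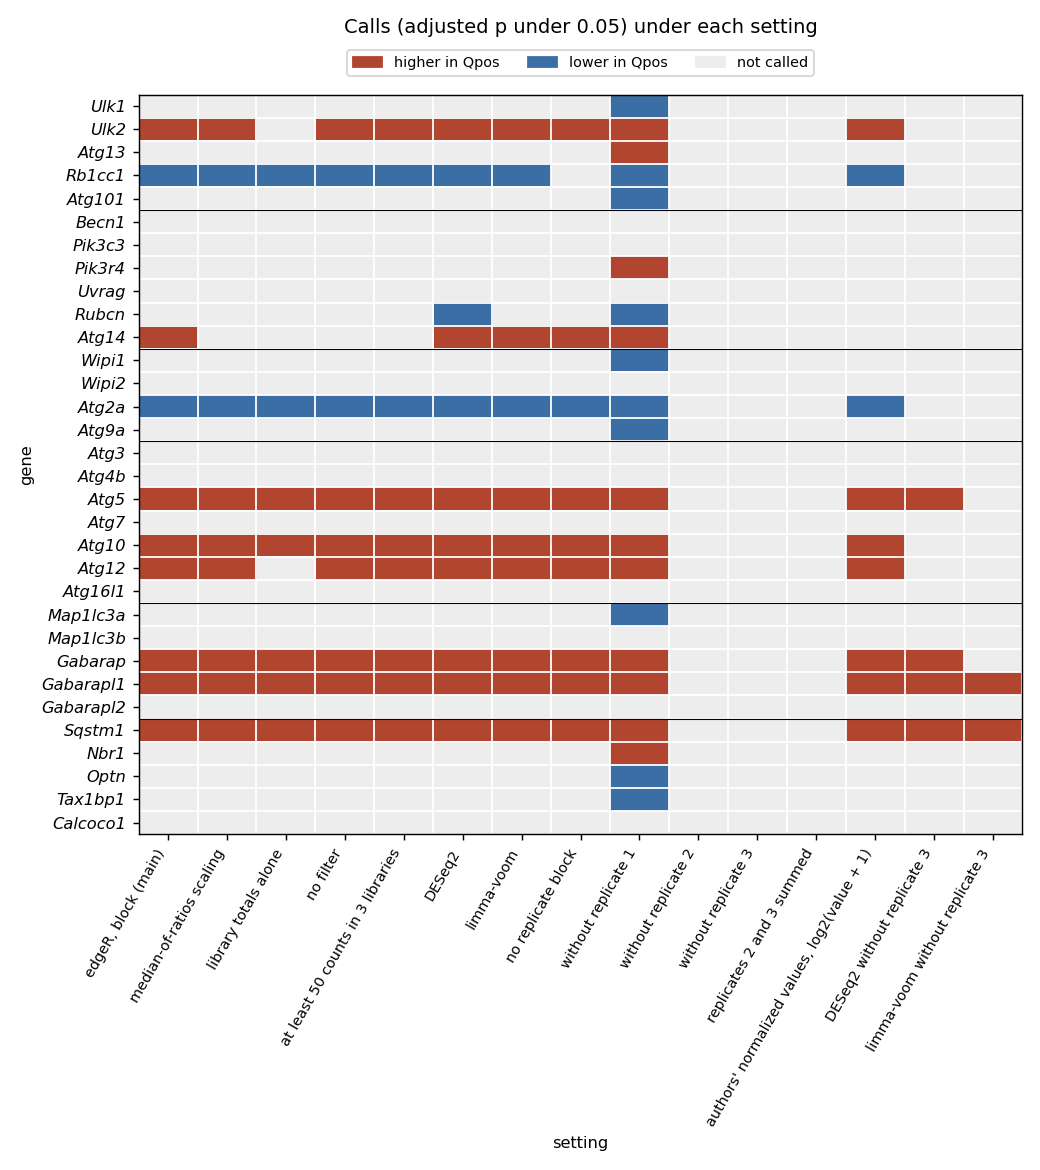
Calls at adjusted p under 0.05 for the 32 genes (rows, lines between steps) under each setting (columns): red higher in Qpos, blue lower, grey not called. Gabarapl1 and Sqstm1 are called in 11 of 14 alternatives, and edgeR calls none of the 32 without replicate 2 or 3.

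Other genes of the pathway, outside the 32, were read from 6 lists. Of 80 listed symbols 78 were tested, and 22 rose (28.2%, against 18.5% of all tested genes) and 8 fell (10.3%, against 16.3%), with a median log2 fold change of 0.31. The list of genes for fusion with lysosomes had the most rises, 8 of 16 with 1 lower and a median of 0.78. Its 3 lowest p-values belonged to Vps41, Vps18 and Vps33a, subunits of the HOPS complex that tethers autophagosomes to lysosomes. Vps18 had 143, 140.3 and 137 CPM in Qpos libraries, against 38.4, 53.6 and 54.9 CPM in Qneg libraries (1.54 ± 0.17, adjusted p = 0.0134). Vps41 (1.11 ± 0.11, adjusted p = 0.0118) and Vps33a (1.11 ± 0.13, adjusted p = 0.0146) rose too, and for all 3 the groups did not overlap. The 1 gene of the list that fell, at the threshold, was the fusion protein gene Stx17 (-0.45 ± 0.11, adjusted p = 0.0497), which is named after its value was seen.

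Conjugation relatives split, with 2 of 5 higher and 2 lower (40.0% each, against 18.5% and 16.3% of all tested genes). Atg4c, a relative of Atg4b, had 31.4, 42.1 and 46.4 CPM in Qpos libraries, against 6.58, 13.3 and 12.5 CPM in Qneg libraries (1.94 ± 0.17, adjusted p = 0.0101). Atg16l2, the relative of Atg16l1, had 15.8, 20.3 and 19.0 CPM in Qpos libraries, against 98.0, 57.9 and 60.3 CPM in Qneg libraries (-1.93 ± 0.28, adjusted p = 0.0198). Neither pair of groups overlapped, whereas Atg4b and Atg16l1 themselves were not called. Tecpr1, a tether that binds the ATG5 conjugate, rose by 1.70 ± 0.16 (adjusted p = 0.0107).

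Among lipid kinase partners and genes of membrane growth, 4 of 12 rose and 2 fell (33.3% and 16.7%, against 18.5% and 16.3% of all tested genes). The list was led by the membrane protein gene Vmp1 (1.36 ± 0.12, adjusted p = 0.0101), Sh3glb1, a partner of Beclin complexes (1.33 ± 0.14, adjusted p = 0.0129), and Nrbf2, a partner of the ATG14 complex (1.05 ± 0.17, adjusted p = 0.0229). The Sh3glb1 call was lost without the pair as a block (adjusted p = 0.0931). Of upstream kinases and regulators, 4 of 18 rose and 2 fell (22.2% and 11.1%, against 18.5% and 16.3% of all tested genes). Rheb, the activator of mTORC1, rose by 1.05 ± 0.17 (adjusted p = 0.0239) and Akt1s1, whose product is both a substrate and an inhibitor of mTORC1, by 0.76 ± 0.12 (adjusted p = 0.0222), while Ddit4, another inhibitor of mTORC1, fell by 1.09 on the log2 scale (standard error 0.11, adjusted p = 0.0117). Deptor, also an mTORC1 inhibitor and named after its value was seen, rose by 1.38 ± 0.27 (adjusted p = 0.0318) with overlapping groups, so genes of mTORC1 inhibitors moved in both directions. Of other receptors and mitophagy genes, 4 of 21 rose and 0 fell (19.0% and 0.0%, against 18.5% and 16.3% of all tested genes). Tex264, a receptor for endoplasmic reticulum, had 78.5, 67.4 and 65.5 CPM in Qpos libraries, against 16.9, 15.003 and 14.95 CPM in Qneg libraries (2.17 ± 0.11, adjusted p = 0.00606). Nufip1, described as a ribosome receptor (0.97 ± 0.13, adjusted p = 0.0167), and the mitophagy receptor gene Fundc1 (0.69 ± 0.11, adjusted p = 0.0212) rose by less. With library totals alone as scaling, Akt1s1 (adjusted p = 0.122), Fundc1 (0.113) and Nufip1 (0.0671) were not called.

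The phagocyte oxidase, which LC3-associated phagocytosis uses upstream of conjugation, is described here by 5 genes, of which the GTPase gene Rac2 fell (-1.70 ± 0.20, adjusted p = 0.0144). Cybb, the catalytic subunit, had 540.1, 884 and 991 CPM in Qpos libraries, against 373, 1865 and 1831 CPM in Qneg libraries (-0.49 ± 0.41, adjusted p = 0.401). Its partner Cyba had 830.2, 768 and 791 CPM in Qpos libraries, against 151, 397 and 399 CPM in Qneg libraries (1.46 ± 0.40, adjusted p = 0.0607), and DESeq2 and limma-voom called it (0.00229 and 0.0451). The cytosolic subunit genes Ncf1 (-1.29 ± 0.42, adjusted p = 0.0833) and Ncf4 (-0.50 ± 0.43, adjusted p = 0.407) did not pass. Without replicate 1, Rac2, Cybb, Ncf1 and Ncf4 were called lower and Cyba higher, in a setting that calls 35.8% of all tested genes lower and 37.1% higher. All 5 genes were lower in Qneg 1 than in Qneg 2 and 3, such as Ncf1 with 580 CPM, against 1957 and 1937 CPM. Summed neutrophil markers were also lower in Qneg 1 (1274 CPM, against 37980 and 37635 CPM in Qneg 2 and 3), and their part was not tested. Rubcn and Cybb, both required for the process, were not called by edgeR with all libraries (DESeq2 called Rubcn lower), and edgeR called both lower without replicate 1.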

How the data were processed

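The authors deposited a table of estimated counts per gene as whole numbers. FastQC, Salmon and mm10 are the tools and build in the submitters' processing notes. Because Salmon gives fractional estimates, the deposited values are expected counts after rounding. Annotation, strand use in counting and handling of human reads are not given in the sources used here. In a second table, the authors' deposited normalized values are a signal, each a raw count times a factor specific to its gene and library, and the formula is not stated. They served only as an alternative, on the log2(value + 1) scale.

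The main test was the quasi-likelihood F test in edgeR 4.0.16 (R 4.3.3), with TMM scaling, the replicate number as a block and Benjamini-Hochberg adjustment over the 14605 genes kept by filterByExpr (count 10, total 15). Standard errors came from the F statistic, and log2 CPM used a prior count of 2. The series itself states the pairing. After removing group means, libraries that share a number correlated at 0.198, 0.0769 and 0.158, but Qpos 2 with Qneg 3 (0.116) and Qpos 3 with Qneg 2 (0.147) did so too, so the values set replicate 1 apart and do not tell pair 2 from pair 3. No label names separate animals, and p-values here cover the spread between libraries, some of which may be technical. Alternatives used DESeq2 1.42.0, limma 3.58.1, other scalings and filters, no block, and left out or summed replicates. The edgeR step was tested on simulated data. These held no replicate that stood apart from the others, so that test does not cover the spread seen with replicate 1. Coordinates and transcript lengths came from GENCODE M21 (GRCm38, the assembly of mm10), and promoters from RefSeq (GRCm38.p6). Figures were drawn with matplotlib 3.10.9.

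The 32 genes, the other gene lists and the markers were chosen with earlier results of these data known. All 32 genes are named, and of each other list the 3 tested genes with the lowest p-value (5 genes of the oxidase, where 1 gene is not reported here). Where the annotation places exons of another gene over those of an autophagy gene, reads cannot be told apart if strand was not used: Rubcn shares 171 bases with Fyttd1 (at most 2188 counts in a library), Atg9a 46 with Ankzf1 (at most 2018), Becn1 3104 with Cntd1 (at most 173), Map1lc3b 58 with Zcchc14 (at most 190), Sqstm1 580 with Mrnip (at most 130) and Rb1cc1 558 with an antisense gene (at most 9). Atg9a also shares 1832 bases with Gm29253 on its own strand, which strand use cannot resolve. Atg14, Gabarapl1, Optn, Tax1bp1 and Uvrag overlap genes on the other strand that were not analysed here.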

Additional observations from a re-analysis of the deposited data

How the results depend on the processing

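Gene counts moved most with the libraries used. Over the fits that left out 1 replicate, the number of genes called ran from 0 to 5538 higher and from 0 to 5352 lower, the autophagy genes from 0 to 11 higher and from 0 to 10 lower, and the other pathway genes from 0 to 45 higher and from 0 to 23 lower. These ranges include DESeq2 and limma-voom without replicate 3, which were added after the data were seen and called 1467 and 548 genes higher, 4 and 2 autophagy genes higher and 0 and 0 lower, and 12 and 1 other pathway genes higher and 4 and 1 lower (limma-voom called 619 genes lower). edgeR had 4209 genes at an unadjusted p under 0.05 without replicate 3. With replicates 2 and 3 summed, all 6 counts were 0, with 4488 genes at an unadjusted p under 0.05. The fit without replicate 1 also has 2 pairs and gave the highest counts. The cause of the loss in the other fits was not tested.

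Without the replicate block, 2911 genes were higher and 3058 lower, 8 autophagy genes were higher and 1 lower (Rb1cc1 lost its call), and 23 other pathway genes were higher and 15 lower. With library totals alone, the median of all tested genes was -0.36 instead of -0.01 on the log2 scale, 1572 genes were called higher, 5 autophagy genes were higher and 16 other pathway genes lower. Under that scaling 32.2% of all calls were higher, against 53.2%, and uncalled autophagy genes changed sign with it: Atg13 (-0.12), Becn1 (-0.28), Pik3r4 (-0.33), Atg4b (-0.34), Atg16l1 (-0.25), Map1lc3b (-0.17), Gabarapl2 (-0.25) and Nbr1 (-0.15). DESeq2 called 3665 genes and 16 other pathway genes lower, and without a filter 4 other pathway genes were lower. The cause of these shifts was not tested.

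Other sign changes were of genes that did not pass the test. Pik3r4 was -0.017 by median-of-ratios scaling, -0.039 with the stricter filter of 50 counts in 3 libraries and -0.016 by DESeq2, and Atg4b was -0.025, -0.048 and -0.025. With replicates 2 and 3 summed, Pik3r4 was -0.10, Optn 0.081 and Tax1bp1 0.0077. By edgeR over the left-out replicates, Pik3r4 ran from -0.12 to 0.30, Atg3 from -0.098 to 0.73, Atg4b from -0.026 to 0.049, Gabarapl2 from -0.045 to 0.22, Optn from -0.94 to 0.10, Tax1bp1 from -0.25 to 0.0029 and Calcoco1 from -0.45 to 0.031. Without replicate 3, DESeq2 and limma-voom gave -0.14 and -0.11 for Pik3r4 and 0.078 and 0.013 for Optn. The 10 called autophagy genes kept their direction in all 14 alternatives.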
